A study of Mus musculus with 4 samples.

Results

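The genes described here break down fatty acids, turn the product into ketone bodies or are known targets of PPARA, the nuclear receptor that switches this programme on in the fasting liver. They were chosen by name, 34 entries in all, and 33 of them have a row among the 24063 gene symbols of the tables. The remaining entry matched no symbol. They were measured in 4 poly-A RNA libraries of mouse liver tumours (hepatocellular carcinoma), numbered 1, 5, 9 and 10, all of strain C57BL/6 (C57BL6/J in the sample titles) and all carrying MYC and PMEPA1 overexpression after hydrodynamic tail vein delivery, an injection that brings DNA mainly into hepatocytes, with no treatment. No control group is among the samples, the species of the delivered sequences is not given. A passage number of 8 to 10, usual for cultured cells, is stated although the source is a tumour. Whether each library is from an animal of its own is not stated, so the spread between libraries, which is the measurement here, may be partly technical, and p-values measure that spread only.

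Fatty acids are first joined to coenzyme A. Long chains are then carried into the mitochondrion on carnitine, where repeated cycles of dehydrogenation, hydration, dehydrogenation and thiolysis shorten them to acetyl-CoA, and electron transfer flavoprotein passes the electrons to the respiratory chain. Peroxisomes shorten very long and branched chains with a separate set of enzymes. Hepatocytes turn surplus acetyl-CoA into ketone bodies for other organs and normally lack the enzyme that would let them burn these themselves.

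Of the 33 genes, 32 had a mean of at least 1 count per 1000000 (CPM, scaled by TMM), the filter used for all tests, and all 32 also passed it without tumour 10. Fgf21, a secreted fasting hormone, did not pass. It had 0.262 CPM in tumour 1 and 0.07, 0.0745 and 0.0297 CPM in tumours 5, 9 and 10, where 3 counts correspond to 0.0524, 0.07, 0.0558 and 0.0892 CPM in tumours 1, 5, 9 and 10. In tumour 1 alone was it clearly above that floor, which covers counting error only. Depth was 41547938 to 51939623 gene counts per library.

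As a group, these genes were highest in tumour 10. Of the 32 expressed genes, 27 were highest there, where 35.8% of all 13129 expressed genes were. For 21 of these 27, tumour 9 came next, and it was second for 25.1% of all expressed genes. The lowest value lay in tumour 1 for 14 genes, in tumour 5 for 13, in tumour 9 for 4 and in tumour 10 for 1. Among all expressed genes, 21.8, 20.3, 25.5 and 32.4% were lowest in tumours 1, 5, 9 and 10. The median deviation from the 4-tumour mean was 0.82 log2 units in tumour 10 and -0.37, -0.38 and 0.03 in tumours 1, 5 and 9, against 0.02, -0.01, 0.00 and -0.04 for all expressed genes in the same tumours. In 13 of the 32 genes, tumour 10 was at least 2-fold above the next highest tumour, as in 8.39% of all expressed genes. Without tumour 10, 25 of 32 genes were highest in tumour 9, 4 in tumour 5 and 3 in tumour 1, against 35.8, 34.3 and 29.9% of the genes expressed in those 3 tumours. The count in tumour 10 depends on scaling: by total counts, which moves tumour 10 down by 0.32 log2 units relative to TMM, 21 of the 32 genes were highest there and 10 in tumour 9.

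**Figure D1:**
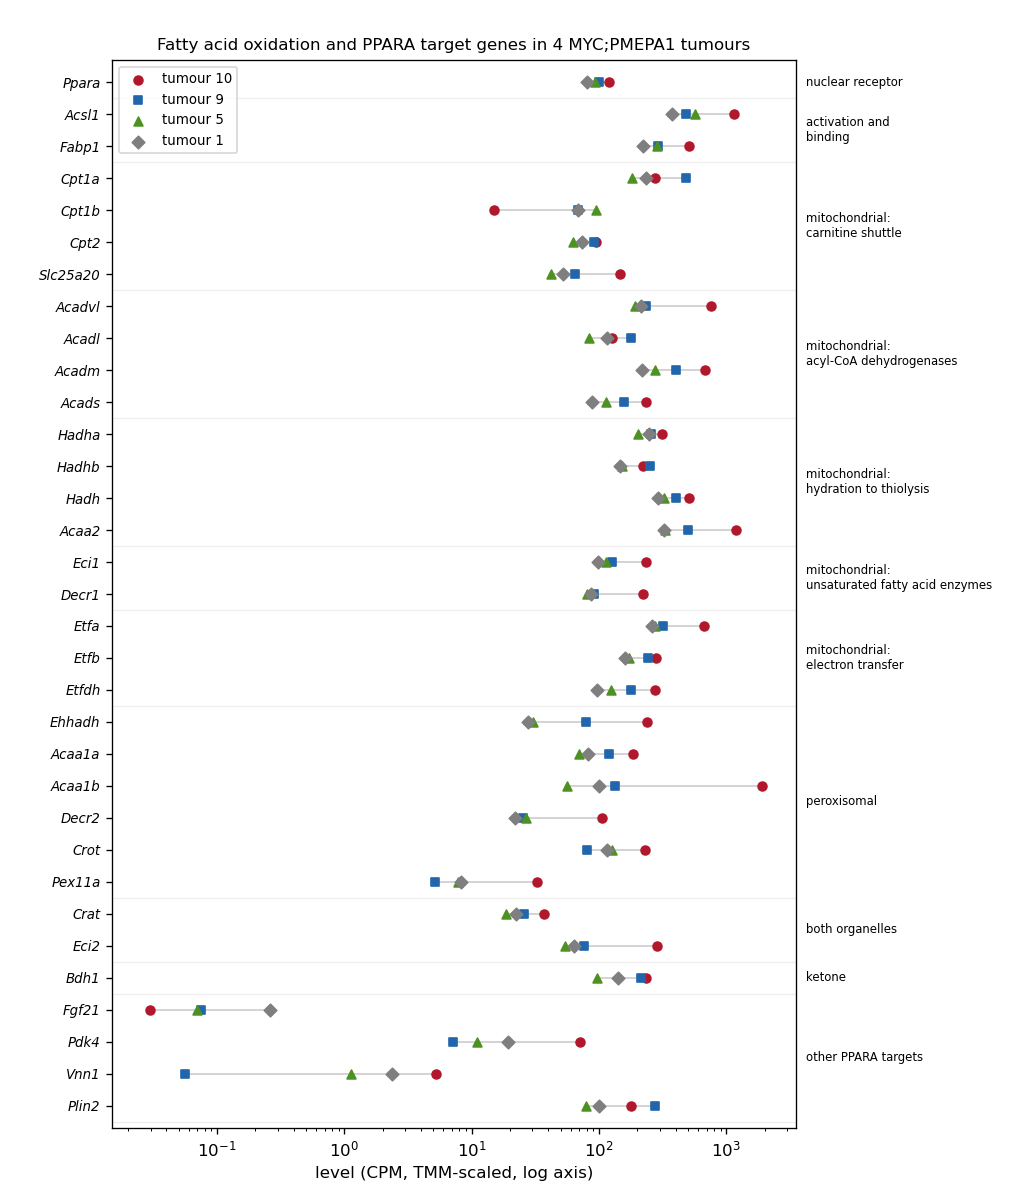
Level of each of the 33 genes in each tumour, in CPM on a log axis, grouped by role, with a grey line over the range of the 4 tumours. Tumour 10 (red circles) lies at the right end for 27 of the 32 expressed genes, while Cpt1b has its lowest value there.

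All 32 genes varied between tumours by more than counting error allows, in a Poisson heterogeneity test with Benjamini-Hochberg adjustment over all expressed genes, but so did 98.7% of expressed genes. With 5% technical variation added to the counting error, all 32 genes and 94.1% of expressed genes did so. The spread was at least 1 SD unit of log2 CPM in 8 of the 32 genes, against 16.6% of all expressed genes. These were Acaa1b, Ehhadh, Decr2, Pex11a, Eci2, Cpt1b, Pdk4 and Vnn1. The median SD was 0.65 for the 32 genes and 0.45 for all expressed genes (n = 4 tumours each). Without tumour 10, the count fell to 1 gene, Vnn1. Over all genes it fell from 2178 to 1507 of the 13194 then expressed. The median SD of the set was then 0.33. In edgeR's quasi-likelihood test of a single tumour against the remaining 3, with Benjamini-Hochberg adjustment across every gene and tumour, 0 genes of the set were called, and 0% of all expressed genes. Without tumour 9, it called 6 of the 32 in tumour 10 (Acaa1b, Acaa2, Acadvl, Decr2, Ehhadh and Eci2), and 3.19% of all expressed genes. At an unadjusted p of 0.05, that test marked 20 of the 32 genes in tumour 10, 19 of them higher, where 22.1% of expressed genes were marked and 13.9% were marked higher. It marked 2 in tumour 9, Cpt1a higher and Vnn1 lower, where 5.66% were marked, and 0 in tumours 1 and 5, where 0.716 and 0.922% were marked. The DESeq2 Wald test called 14 of the 32 in tumour 10 after adjustment, where it called 10.4% of expressed genes. It called 1 in tumour 9, where it called 2.52%, and 0 in tumours 1 and 5, where it called 0.221 and 0.358%. limma-voom called 0 of the 32, and 0% of expressed genes. On log2 CPM, 1 tumour stood apart from the other 3 by Dixon's ratio in 3 of the 32 genes and in 7.01% of expressed genes. A lone tumour is taken to vary like the other 3 in these tests, which describe that library and no condition.

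**Figure D2:**
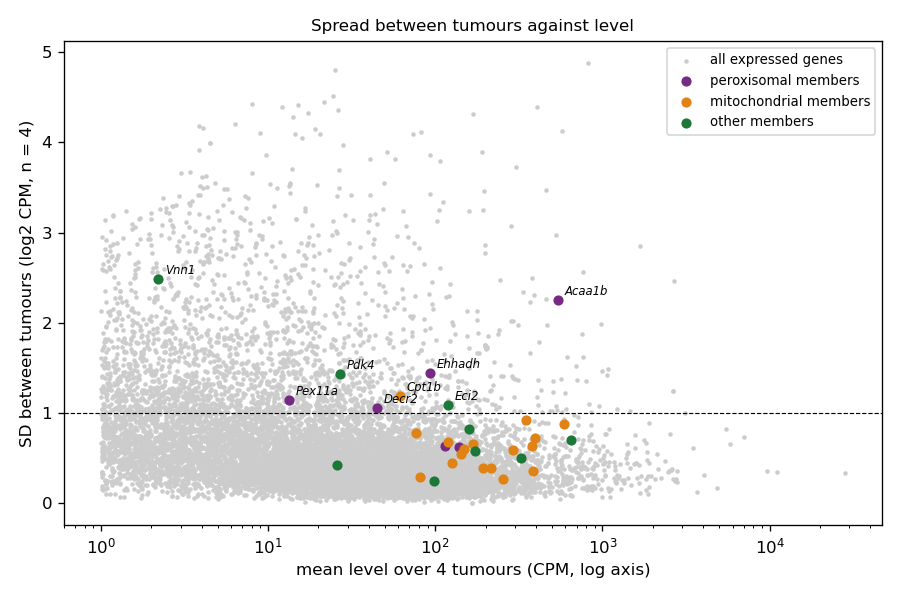
SD between the 4 tumours in log2 CPM against the mean level in CPM on a log axis, for all expressed genes (grey) and for the peroxisomal, mitochondrial and other genes of the set. The dashed line marks an SD of 1, and the 8 named genes lie above it.

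Hepatocyte markers moved the same way, and their part in these values was not tested. Of 14 hepatocyte markers, 11 were highest in tumour 10, against 35.8% of all expressed genes. The median deviation of the markers was 1.37 there and -0.37, -0.68 and -0.17 in tumours 1, 5 and 9. Their summed level was 50860 CPM in tumour 10 and 19050 to 25910 CPM elsewhere. All 8 stellate cell and fibroblast markers were lowest in tumour 10, against 32.4% of all expressed genes. These markers summed to 111.8 CPM there and 290.6 to 503.8 CPM elsewhere. Tumour 9 had the highest neutrophil sum (545 CPM, against 11.4 to 24.3 CPM elsewhere) and erythroid sum (1033 CPM, against 111.5 to 148.7 CPM). It also had the highest macrophage and Kupffer cell sum (932 CPM, against 207 to 384 CPM), of which Cd5l made up 431 CPM. Of the 9 expressed markers in that last list, 6 were highest in tumour 9 and 3 in tumour 1, against 21.6 and 21.4% of all expressed genes. Those 3 were Clec4f, Marco and Vsig4. Clec4f had 20.7 CPM in tumour 1 and 0.745 CPM in tumour 9. Endothelial markers summed to 79.4 to 125.8 CPM and T and B cell markers to 1.31 to 3.57 CPM. Bile duct and progenitor markers summed to 13.9 CPM in tumour 10 and 51.8, 81.2 and 15.7 CPM in tumours 1, 5 and 9. Deviations also followed transcript length across expressed genes, with Spearman's rho of -0.27 in tumour 10 and 0.23, 0.14 and 0.06 in tumours 1, 5 and 9. The median transcript length was 2068.5 bases for the 32 genes and 2756 bases for all expressed genes. In bulk RNA, fewer cells of a type and less RNA per cell cannot be told apart.

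Ppara itself varied little. The receptor's gene (NM_011144, GRCm38 chr15:85734983-85802819, plus strand) had 120.3 CPM in tumour 10 and 80.3, 93.6 and 99.7 CPM in tumours 1, 5 and 9. Its SD of 0.24 log2 units lay at percentile 20.0 of all expressed genes, and with total-count scaling its deviation in tumour 10 was -0.01 in place of 0.30. Rxra, which encodes the usual partner of PPARA on DNA, had 475 CPM in tumour 10 and 205.5, 207 and 234 CPM in tumours 1, 5 and 9, an unadjusted p of 0.00384 and an adjusted p of 0.279 by edgeR. Tumour 10 thus stood apart for Rxra and much less for Ppara, a difference between the genes that was not tested. Rxrg, another RXR gene, had 8.71 CPM in tumour 10 and at most 0.245 CPM elsewhere, where it rested on 3 to 14 counts (edgeR adjusted p = 0.194). Of 14 regulators of the pathway outside the set, 6 were highest in tumour 10, 4 in tumour 1 and 4 in tumour 5. For all expressed genes these shares were 35.8, 21.4 and 21.2%. The median deviation in tumour 10 was 0.15 for the 14 regulators and 0.02 for all expressed genes.

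The genes of fatty acid activation and binding were both highest in tumour 10. Per kilobase of transcript, Fabp1, the abundant fatty acid binding protein of liver, was the highest gene of the set at 663 ± 252 CPM per kilobase (SD, n = 4), percentile 98.9 of expressed genes. It had 505 CPM in tumour 10 and 221, 286 and 292 CPM in tumours 1, 5 and 9. Acsl1, the main long-chain acyl-CoA synthetase of liver, had 1156 CPM in tumour 10 and 375, 565 and 482 CPM in tumours 1, 5 and 9. For both genes all other tumours lay below tumour 10, and tumour 1 was lowest. The edgeR adjusted p for tumour 10 was 0.467 for Fabp1 and 0.332 for Acsl1.

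PPARA binds DNA together with RXR at direct repeats of AGGTCA spaced by 1 base. The 250 bases before the start of each gene (RefSeq, GRCm38.p6, present for 28 of the 33 genes) were searched on both strands for this repeat, AGGTCA then any base then AGGTCA, and the best match was scored by its mismatches in the 2 half-sites. No gene of the set held a perfect match, 1 had a match with at most 1 mismatch and 3 with at most 2. Among 27025 genes with such windows, 0.0407% held a perfect match, 0.566% one with at most 1 mismatch and 3.72% one with at most 2. The 3 windows are shown because they hold the closest matches, which are in capitals and run against the direction of the gene, so that they read as the reverse complement of the repeat. That of Fabp1, with 1 mismatch, lies at bases -67 to -55 of the start (chr6:71199629-71199878, plus strand). Those of Etfa (chr9:55512244-55512493, minus strand) and Plin2 (chr4:86670060-86670309, minus strand) have 2 mismatches and lie at -77 to -65 and -225 to -213. A match describes these letters only and is no evidence of binding.
Fabp1: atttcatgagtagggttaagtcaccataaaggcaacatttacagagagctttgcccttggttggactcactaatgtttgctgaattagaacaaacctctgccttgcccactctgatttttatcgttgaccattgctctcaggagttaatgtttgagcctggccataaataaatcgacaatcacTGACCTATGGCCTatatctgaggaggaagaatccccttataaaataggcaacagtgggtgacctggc
Etfa: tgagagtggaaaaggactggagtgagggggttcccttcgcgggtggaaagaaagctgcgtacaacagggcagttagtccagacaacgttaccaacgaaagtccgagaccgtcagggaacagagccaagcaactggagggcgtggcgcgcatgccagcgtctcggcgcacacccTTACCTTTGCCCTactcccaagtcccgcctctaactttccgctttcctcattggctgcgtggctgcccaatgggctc
Plin2: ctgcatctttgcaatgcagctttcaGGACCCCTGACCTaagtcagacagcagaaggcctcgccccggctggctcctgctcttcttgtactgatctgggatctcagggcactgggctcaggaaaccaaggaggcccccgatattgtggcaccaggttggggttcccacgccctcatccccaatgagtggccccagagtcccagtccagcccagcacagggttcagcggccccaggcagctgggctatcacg
The 3 genes did not share a pattern: Fabp1 and Etfa were highest in tumour 10 and Plin2 in tumour 9.

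The carnitine shuttle did not move as a unit. Cpt1a, the liver form of the outer membrane enzyme that admits long chains and the main control point of the pathway (chr19:3322334-3385733, plus strand), was highest in tumour 9, at 479 CPM, with 235, 181.5 and 276 CPM in tumours 1, 5 and 10. Slc25a20, the carrier that exchanges acylcarnitine for carnitine across the inner membrane, had 145 CPM in tumour 10 and 52.5, 42.2 and 65.0 CPM in tumours 1, 5 and 9. Cpt2, which hands the chain back to coenzyme A inside, stayed within 62.3 to 94.4 CPM.

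Cpt1b, the muscle form of CPT1, was the 1 gene of the 32 below its 4-tumour mean in tumour 10, where total-count scaling put 6 below it (Acadl, Cpt1a, Cpt1b, Cpt2, Hadhb and Ppara). It had 15.1 CPM in tumour 10 and 68.4, 94.3 and 68.5 CPM in tumours 1, 5 and 9, a log2 difference of -2.35 in edgeR (unadjusted p = 0.000979, adjusted p = 0.191) that the DESeq2 Wald test called (adjusted p = 3.98e-08). Tumour 10 lay well below the other 3, and with TMM scaling it was the lowest tumour for no other gene of the 32. Per kilobase, Cpt1a exceeded Cpt1b 12.3-fold in tumour 10, 4.71-fold in tumour 9, 2.31-fold in tumour 1 and 1.29-fold in tumour 5. Cpt1b (chr15:89416405-89425863, minus strand) lies just downstream of Chkb, which encodes a choline kinase, and a read-through transcript spans both genes. Of the 50-base words of the Cpt1b transcript, 93.0% also occur in that read-through transcript, so most reads of Cpt1b could come from either. The read-through row had 142.8 CPM in tumour 10 and 118.2, 160.6 and 143.6 CPM in tumours 1, 5 and 9. In each tumour its counts were close to those of Chkb and Cpt1b together. In tumour 10 it had 4804 counts, beside 4322 for Chkb and 508 for Cpt1b. The row thus gives no level of read-through apart from both genes. Chkb went the other way from Cpt1b, with 66.9 CPM per kilobase in tumour 10 and 26.5, 34.8 and 39.4 in tumours 1, 5 and 9, where Cpt1b had 5.22 in tumour 10 and 23.6, 32.6 and 23.7. Of 8 muscle markers, Myh1 and Myh4 had 0 counts in all 4 tumours, and the list summed to 12.2 CPM in tumour 1, nearly all of it Ckm (11.97 CPM), and to at most 0.773 CPM elsewhere.

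The 4 acyl-CoA dehydrogenases, which take the first step of each cycle for chains of different length, did not all follow the same order. Acadvl, for very long chains (chr11:70010183-70015411, minus strand), had 753 CPM in tumour 10 and 213, 193 and 232 CPM in tumours 1, 5 and 9. Tumour 10 was 3.24-fold above the next tumour, the largest such step among the 17 mitochondrial genes of the set (edgeR adjusted p = 0.144). Acadm, for medium chains, had 683 CPM in tumour 10 and 219, 273 and 401 CPM in tumours 1, 5 and 9. Acads, for short chains, had 235 CPM in tumour 10 and 88.8, 114 and 156 CPM in the same tumours. Acadl, the long-chain enzyme, did not follow and was highest in tumour 9, at 178 CPM, with 115.7, 83.9 and 125.8 CPM in tumours 1, 5 and 10. Acadvl shares 42.9% of its exon bases with Dvl2 on the opposite strand in GENCODE M21. Dvl2 had 10.4 CPM in tumour 10 and 26.4, 19.4 and 15.9 CPM in tumours 1, 5 and 9, the opposite order to Acadvl between tumour 10 and the others.

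The remaining steps of the mitochondrial cycle differed in how far they spread. Acaa2, the thiolase that ends the cycle, had 1190 CPM in tumour 10 and 325, 332 and 496 CPM in tumours 1, 5 and 9. Hadha and Hadhb, the alpha and beta subunits of the trifunctional protein, spread far less. Hadha stayed within 201 to 314 CPM, with tumour 10 highest, and Hadhb within 147 to 249.7 CPM, with tumour 9 highest. Hadhb is uncertain because 61.6% of its 50-base words also occur in Gm13910. Hadh, the dehydrogenase for shorter chains, lay between 291 CPM in tumour 1 and 512 CPM in tumour 10.

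Unsaturated chains need extra enzymes, and electrons need a carrier. Decr1, the mitochondrial dienoyl-CoA reductase, had 220.0 CPM in tumour 10 and 87.0, 79.9 and 91.7 CPM in tumours 1, 5 and 9. Eci1, a mitochondrial enoyl-CoA isomerase, had 234 CPM in tumour 10 and 98.7 to 126.5 CPM elsewhere. In both, the other 3 tumours lay close together below tumour 10. Of the electron transfer genes, Etfa had 667 CPM in tumour 10 and 259, 274 and 320.4 CPM in tumours 1, 5 and 9. Etfdh, the enzyme that passes the electrons to ubiquinone, had 276 CPM in tumour 10 and 95.7, 125 and 177 CPM in tumours 1, 5 and 9. Etfb, the partner subunit of Etfa, spread less, from 159 CPM in tumour 1 to 282 CPM in tumour 10, and shares 67.3% of its 50-base words with Gm45233.

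Peroxisomal genes were all highest in tumour 10. Acaa1b, a peroxisomal thiolase (NM_146230, chr9:119148023-119157093, minus strand), spread most of the 6, with 1891 CPM in tumour 10 and 100.3, 56.1 and 132.5 CPM in tumours 1, 5 and 9. Tumour 10 was 14.3-fold above the next tumour, and the SD of 2.25 log2 units lay at percentile 96.8 of expressed genes (edgeR log2 difference 4.29, unadjusted p = 0.000224, adjusted p = 0.128). Its close relative Acaa1a (chr9:119339676-119350299, plus strand), which catalyses the same step, had 186 CPM in tumour 10 and 81.9, 69.5 and 120.4 CPM in tumours 1, 5 and 9. Per kilobase, Acaa1b exceeded Acaa1a 10.7-fold in tumour 10 but lay between 0.8502 and 1.29 times Acaa1a in the other tumours.

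The transcripts of this thiolase pair are identical in 1532 of 1813 aligned columns, and 35.5% of the 50-base words of Acaa1b also occur in Acaa1a, so some reads may have been counted on the wrong gene. The 250 bases before their RefSeq starts were identical in 124 of 266 aligned columns. The RefSeq start used for Acaa1a lies inside the GENCODE interval given above, which begins further upstream. Both upstream windows are shown because the pair differs most in tumour 10 (chr9:119341044-119341293, plus strand, and chr9:119157094-119157343, minus strand).
Acaa1a: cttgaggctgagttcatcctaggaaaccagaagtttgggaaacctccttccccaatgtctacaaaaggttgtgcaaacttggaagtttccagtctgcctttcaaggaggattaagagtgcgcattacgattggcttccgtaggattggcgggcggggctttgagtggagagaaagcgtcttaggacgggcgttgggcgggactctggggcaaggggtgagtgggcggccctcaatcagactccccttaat
Acaa1b: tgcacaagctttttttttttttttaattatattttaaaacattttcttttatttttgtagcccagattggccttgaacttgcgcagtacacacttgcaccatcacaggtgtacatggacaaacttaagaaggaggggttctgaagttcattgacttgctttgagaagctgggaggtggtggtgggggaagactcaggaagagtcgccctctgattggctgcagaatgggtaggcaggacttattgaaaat
The best matches to the AGGTCA repeat in these windows had 5 mismatches in Acaa1a and 4 in Acaa1b.

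Ehhadh, the peroxisomal bifunctional enzyme and a classic PPARA target in rodents (chr16:21761287-21787807, minus strand), had 238 CPM in tumour 10, 78.3 CPM in tumour 9 and 27.9 and 30.0 CPM in tumours 1 and 5. It was one of the genes with tumour 9 clearly in second place. Decr2, the peroxisomal dienoyl-CoA reductase, had 105.8 CPM in tumour 10 and 22.05, 26.85 and 25.3 CPM in tumours 1, 5 and 9. Pex11a, a membrane protein of peroxisome division, had 32.4 CPM in tumour 10 and 8.21, 7.87 and 5.16 CPM in the same tumours. In Pex11a, tumour 9 was below tumours 1 and 5, and in Decr2 it lay between them. Crot, which makes carnitine esters for export from the peroxisome, had 231 CPM in tumour 10, 115 and 127 CPM in tumours 1 and 5 and its lowest value, 81.0 CPM, in tumour 9. Decr2 and Acaa1b also passed the edgeR test when tumour 10 was adjusted on its own, together with Acadvl and Eci2, 4 of 32 genes where 1.75% of all expressed genes passed.

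Peroxisomal and mitochondrial genes were compared by their deviations. In tumour 10 the median deviation was 1.62 log2 units over the 6 peroxisomal genes and 0.76 over the 17 mitochondrial genes, a difference of 0.86. The sign turned in tumour 9, where the medians were -0.52 and 0.16, a difference of -0.68. Tumours 1 and 5 gave differences of -0.17 and -0.16. Deviations from a common mean sum to 0, so the high value of tumour 10 lowers the others. Without tumour 10 the differences were 0.20, 0.02 and -0.07 in tumours 1, 5 and 9. In level, the median peroxisomal gene minus the median mitochondrial gene was -0.58 log2 units of CPM per kilobase in tumour 10 and -1.61, -1.54 and -1.95 in tumours 1, 5 and 9, a mean difference of -1.42 ± 0.59 (SD, n = 4). The 6 peroxisomal genes were thus the lower of the 2 groups in all 4 tumours, and closest to the 17 mitochondrial ones in tumour 10. This order of levels did not hold in the wider lists given below. No p is given because the genes were chosen with results known.

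**Figure D3:**
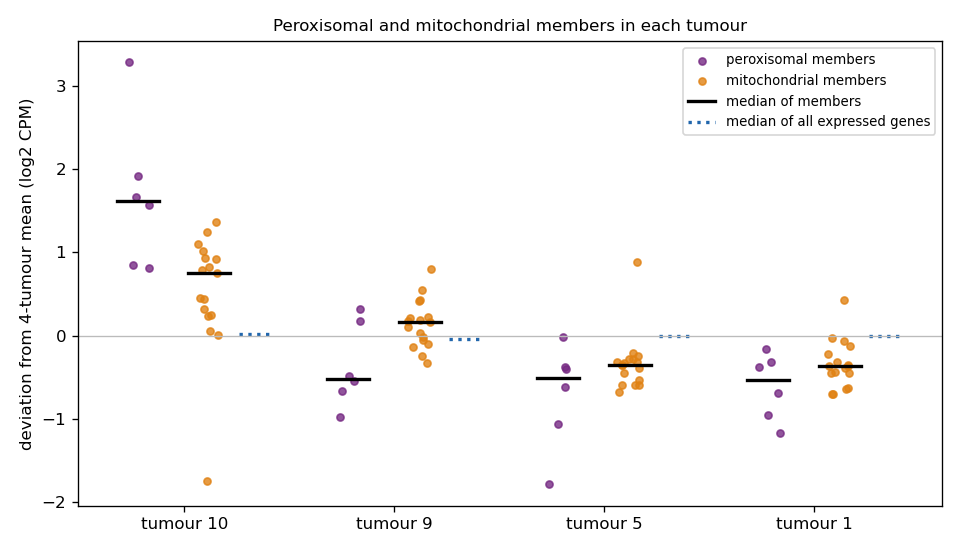
Deviation of each peroxisomal (purple) and mitochondrial (orange) gene from its 4-tumour mean of log2 CPM, by tumour, with medians as black bars and the median of all expressed genes dotted. In tumour 10 the peroxisomal median is 1.62 and the mitochondrial median 0.76, and the lowest orange point is Cpt1b.

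The 2 genes whose products work in both organelles differed from each other. Eci2, an enoyl-CoA isomerase of peroxisomes and mitochondria, had 283 CPM in tumour 10 and 63.4, 54.1 and 76.6 CPM in tumours 1, 5 and 9. Tumour 10 was 3.70-fold above the next tumour (edgeR adjusted p = 0.144). Crat, carnitine acetyltransferase, had 36.9 CPM in tumour 10 and 18.5 to 25.8 CPM elsewhere, its highest value being less than 2 times its lowest.

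The wider peroxisomal list held 28 more genes, all expressed, and 22 of them were highest in tumour 10, 5 in tumour 9 and 1 in tumour 5. Over all expressed genes, 35.8, 21.6 and 21.2% were highest in these tumours. The median deviation of the 28 genes in tumour 10 was 0.77, below the 1.62 of the 6 genes above. Hacl1, which cleaves 2-hydroxy fatty acids, had 327 CPM in tumour 10 and 44.5, 40.3 and 70.0 CPM in tumours 1, 5 and 9. Scp2, a sterol carrier and thiolase gene, had 1792 CPM in tumour 10 and 439, 386 and 783 CPM in the same tumours. In both, tumour 10 was apart at the top and tumour 9 second. The mitochondrial list of 14 more genes, all expressed, had 13 highest in tumour 10, against 35.8% of all expressed genes. Its median deviation in tumour 10 was 0.78, so the wider peroxisomal and mitochondrial lists, at 0.77 and 0.78, lay side by side there, unlike the 6 and 17 genes of the set. Slc25a1, the citrate carrier, led the mitochondrial list, with 537 CPM in tumour 10 and 120.7, 149 and 101.6 CPM in tumours 1, 5 and 9. A citrate carrier is no step of the fatty acid cycle, so this list is not matched to the 17 genes. By median level, the wider peroxisomal list lay at 46.44 CPM per kilobase and the wider mitochondrial list at 28.26. The 6 and 17 genes of the set lay at 40.25 and 79.39, the opposite order.

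With TMM scaling, Bdh1 and Acat1, of the ketone body genes, were highest in tumour 10. Oxct1, the gene of ketone body use, was lowest there. Scaling by total counts moves tumour 10 down by 0.32 log2 units and tumour 9 up by 0.13. Bdh1 was then highest in tumour 9. Bdh1, which interconverts acetoacetate and beta-hydroxybutyrate and is the only ketone gene of the set, had 234 CPM in tumour 10 and 141, 97.2 and 214 CPM in tumours 1, 5 and 9. Tumours 9 and 10 were close together and tumour 5 was lowest (edgeR adjusted p = 0.984 for tumour 10). Acat1, the thiolase that opens the route to ketone bodies, had 933 CPM in tumour 10 and 251, 249 and 387 CPM in tumours 1, 5 and 9. Acat1 was chosen after its values were seen.

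Oxct1, which lets cells outside the liver burn ketone bodies, had 10.2 CPM in tumour 10, 19.5 CPM in tumour 9, 53.3 CPM in tumour 1 and 208 CPM in tumour 5. Tumour 5 was far above the others, and tumour 10 was lowest (edgeR log2 difference -3.20, unadjusted p = 0.106, adjusted p = 0.883 for tumour 10). Per kilobase, Bdh1 exceeded Oxct1 25.8-fold in tumour 10, 12.4-fold in tumour 9 and 2.98-fold in tumour 1, and reached 0.527 of it in tumour 5. The lowest Oxct1 value rested on 342 counts. Of the 9 ketone genes outside the set, 5 were highest in tumour 10, 3 in tumour 5 and 1 in tumour 1. The shares of all expressed genes highest in these tumours were 35.8, 21.2 and 21.4%.

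**Figure D4:**
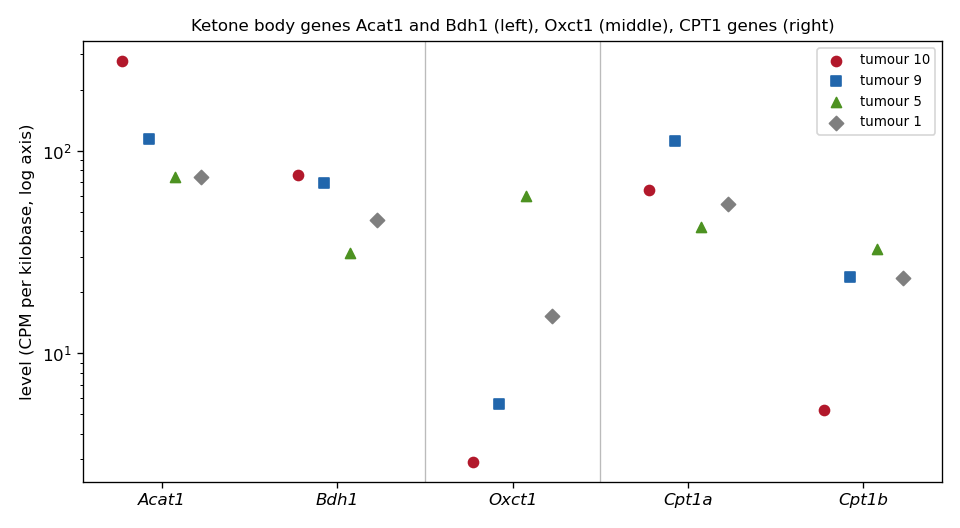
Level in CPM per kilobase of transcript, on a log axis, of Acat1 and Bdh1 (left), Oxct1 (middle) and the CPT1 genes (right), 1 point per tumour. Tumour 10 is highest for Acat1 and lowest for Oxct1 and Cpt1b.

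PPARA targets outside the oxidation pathway did not share an order. Pdk4, a kinase that inhibits pyruvate dehydrogenase, had 70.3 CPM in tumour 10 and 19.1, 11.1 and 7.13 CPM in tumours 1, 5 and 9. Tumour 9 was thus the lowest here. Vnn1, a pantetheinase, had 5.23 CPM in tumour 10, 2.38 and 1.12 CPM in tumours 1 and 5 and 0.0558 CPM, or 3 counts, in tumour 9. It had the largest SD of the set, 2.49 log2 units, and DESeq2 called it lower in tumour 9 (adjusted p = 0.0059) where edgeR's adjusted test did not. Plin2, the coat protein of lipid droplets, was highest in tumour 9, at 277 CPM, with 99.3, 79.2 and 179 CPM in tumours 1, 5 and 10. Together with Cpt1a, Acadl and Hadhb it made up the 4 genes highest in tumour 9. In these genes tumour 5 or tumour 1 was lowest.

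Of 25 further PPARA targets and lipid genes, 22 were expressed. Of these, 15 were highest in tumour 10, 4 in tumour 5, 2 in tumour 9 and 1 in tumour 1. The shares over all expressed genes were 35.8, 21.2, 21.6 and 21.4% in the same order. The fatty acid hydroxylases Cyp4a14 and Cyp4a10, strong PPARA targets in mouse liver, varied widely. Cyp4a14 had 96.4 CPM in tumour 10, 16.5 CPM in tumour 1, 1.94 CPM in tumour 9 and 0.6304 CPM in tumour 5. Cyp4a10 had 11.9 CPM in tumour 10, 5.36 CPM in tumour 1, 1.06 CPM in tumour 9 and 0.21 CPM, or 9 counts, in tumour 5. Tumour 1 came second in both, as it did in Pdk4, Vnn1 and Pex11a of the set. Acsl5, a further acyl-CoA synthetase, had 499.7 CPM in tumour 10 and 174 and 136 CPM in tumours 1 and 9, with tumour 5 second. Of the fat cell markers, Lep had 0 counts in all tumours, Adipoq 3 counts in tumour 9 and 0 elsewhere, and Plin1 1 count in tumour 10 and 0 elsewhere, while Fabp4 had 63.6 CPM in tumour 10 and 23.7 to 51.4 CPM elsewhere. The 7 markers summed to 89.3 CPM in tumour 10 and 27.4 to 68.4 CPM elsewhere. Nearly all of this was Fabp4 and Cidec (25.7 CPM in tumour 10), the 2 markers that were expressed. Both are also among the 25 lipid genes above, so the sum is no separate measure of fat cells. The part of fat cells in the lipid gene values was not tested.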

How the data were processed

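RNA was poly-A selected and made into TruSeq libraries, per the labels' protocols. Per the submitters' processing notes, the build was GRCm38 and FastQC 0.11.8 was used. For the aligner, the counting program and strand use, the answer is not given in the sources used here, and overlapping genes on opposite strands may share reads. Each deposited table has 33984 RefSeq transcript rows with whole-number read counts. A read can count on several isoform rows, so each symbol was represented by the row with the highest mean count. The deposited FPKM served only to recover transcript lengths, and the deposited TPM was not used. Counts were scaled by TMM (factors 1.102, 1.031, 1.098 and 0.8018 for tumours 1, 5, 9 and 10) in edgeR 4.0.16 under R 4.3.3. Log2 CPM used a prior count of 2, and genes with a mean of at least 1 CPM were tested.

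Single tumours were set against the remaining 3 by edgeR's two-sided, robust quasi-likelihood test, with Benjamini-Hochberg adjustment over all genes and the 4 tumours and a threshold of 0.05. DESeq2 1.42.0 and limma-voom (limma 3.58.1) were alternatives, as were other scalings, no filter, summed rows, another prior count and leaving out each tumour. No pair of libraries was near-identical: 74.1 to 86.5% of expressed genes differed beyond counting error between any 2. Gene positions and 50-base words are from GENCODE M21 (GRCm38), upstream sequences from RefSeq GRCm38.p6.

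The genes and lists were chosen with earlier results of these data known. All 33 genes were named, and of each pathway list the genes with the highest mean and the largest SD, with Cyp4a10 and Cyp4a14. Some genes that this rule names are not reported here. Of the markers of hepatocytes, other liver cells, blood, fat and muscle, mainly sums and counts are given.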

Additional observations from a re-analysis of the deposited data

Results flagged for a closer look

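In a group of 4, a single tumour was marked as far from the others when its gap to the nearest, divided by the whole range of log2 CPM, exceeded Dixon's critical value. This held for 3 of the 32 expressed genes of the set, against 7.01% of all expressed genes, and chance alone marks about 1 in 20. In tumour 10 the ratio was 0.863 for Acadvl (753 CPM, against 193 to 232 CPM in the others), 0.864 for Decr1 (220.0 CPM, against 79.9 to 91.7 CPM) and 0.875 for Decr2 (105.8 CPM, against 22.05 to 26.85 CPM). Among the other genes named by rule, Rxra had a ratio of 0.847 in tumour 10 (475 CPM, against 205.5 to 234 CPM). Cd5l, a macrophage gene, had 0.83 in tumour 9 (431 CPM, against 68.0 to 93.0 CPM), and Ckm, a muscle gene, had 0.969 in tumour 1 (11.97 CPM, against 0.261 to 0.297 CPM).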

How the results depend on the processing

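No paired analysis was possible because all 4 tumours form 1 group. All 32 expressed genes kept variation beyond counting error under every alternative run, 5% added technical variation included. With total-count scaling, 5 genes had an SD of at least 1 in place of 8, and 10 were highest in tumour 9 in place of 4. With no filter, 3761 of all genes had an SD of at least 1 in place of 2178, 1 gene of the set (Fgf21) was highest in tumour 1, and edgeR called 3 genes in tumour 10, where it called 0.642% of all genes tested. Adjusted for tumour 10 alone, edgeR called 4 there, where it called 1.75% of all expressed genes. The DESeq2 Wald test called 14 in tumour 10 and 1 in tumour 9, where it called 10.4 and 2.52% of all expressed genes. Leaving out each tumour in turn gave 1 to 10 genes with an SD of at least 1 (1 without tumour 10), 0 to 3 highest in tumour 1, 1 to 4 in tumour 5 and 4 to 25 in tumour 9, with the upper values without tumour 10, and 0 to 6 called by edgeR in tumour 10, with 6 without tumour 9, where it called 3.19% of all expressed genes. The cause of these changes was not tested. DESeq2 size factors and summed rows changed none of these counts by more than 1.5 times. The peroxisomal minus mitochondrial difference in tumour 10 ranged from 0.62 to 1.16 over all alternatives. With a single group of 4 and 1 library per tumour, differences between tumours and between libraries cannot be told apart. Depth limits Vnn1 in tumour 9 (3 counts) and Fgf21.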

Other observations

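Pparg, which encodes the fat cell relative of PPARA and was chosen after its values were seen, had 69.2 CPM in tumour 10 and 2.57, 1.52 and 5.97 CPM in tumours 1, 5 and 9. Tumour 10 was 11.6-fold above the next tumour, with an edgeR unadjusted p of 0.00219 and an adjusted p of 0.234. Cidec, a lipid droplet protein gene also chosen after its values were seen, had 25.7 CPM in tumour 10 and 3.69, 7.40 and 16.9 CPM in tumours 1, 5 and 9 (edgeR adjusted p = 0.933).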
